A study of Mus musculus with 16 samples.

Results

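Interferon-stimulated genes are the transcripts that cells raise when interferon reaches its receptor. Here 39 of them were followed through left ventricles of wild-type mice and of mice with a splicing-factor mutation. All of the mice had received a viral vector. The 39 genes were chosen by gene symbol from a list of antiviral effectors, regulators and antigen-processing genes. The choice was made with earlier results of these data known. Counts over the 39 genes set beside all genes are therefore not independent of the data. All 39 were found among the 56953 genes of the count table and all 39 passed the filter on low counts, which left 18662 genes for testing. The lowest count of any of them in any library was 3.

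The study crossed genotype with virus in 16 mice on the Bl6J background, 4 per group, and each left ventricle gave 1 library of polyadenylated RNA. WT Ctr and WT Tnpo3 mice had wild-type RBM20, and P635L Ctr and P635L Tnpo3 mice were homozygous for P635L, a missense mutation of this cardiac splicing factor. Every mouse received 1e12 vector genomes of the adeno-associated virus AAV9 through a tail vein when 4 weeks old, so there is no group without virus, and its heart was collected 12 weeks after that, at an age of 16 weeks. The Tnpo3 virus delivered the cDNA of a nuclear import receptor, whereas the Ctr virus expressed Cre recombinase and enhanced green fluorescent protein under the CAG promoter. The virus comparisons therefore set 2 different cargos against each other. The labels say that both sexes were used and do not say which mouse was of which sex or whether animals shared a litter.

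Type I interferons bind the receptor IFNAR, whose kinases JAK1 and TYK2 start the signal inside the cell. A complex that contains STAT2 and IRF9 then binds the interferon-stimulated response element in the promoters of its target genes. Interferon gamma acts through another receptor and another promoter element, the gamma-activated site, and it is the main inducer of guanylate-binding proteins, the immunoproteasome and antigen presentation. IRF7, itself induced by interferon, amplifies the production of type I interferon. In the heart these genes are known to have a basal level in cardiomyocytes, endothelium and resident macrophages and rise in viral myocarditis.

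The promoter sequences show which of the genes carry the 2 elements close to their start. A RefSeq table (GRCm38.p6) held promoters of 28 of the 39 genes, each from 250 bases before to 50 bases after the start. The core of the interferon-stimulated response element, searched as GAAANNGAAA on both strands, lay in 14 of the 28 and in 3.99% of all 27025 genes of the table. The core of the gamma-activated site, searched as TTCNNNGAA on both strands, lay in 6 of the 28 (21.4%) and in 9.55% of all genes. A match is a run of letters and not a measured binding site. The stretches printed here belong to genes on which the results turn, with capitals for letters inside a match. In the Ifit1 and Ifit3 stretches the response element reads on the opposite strand. The Isg15 stretch holds 3 overlapping matches, the Oas1a stretch holds 2 overlapping response elements at its end and a gamma-activated site near its beginning, and the Psmb8 stretch holds a gamma-activated site. No letters of either core were found in the 300-base windows of Irf7 and Oasl1.
Isg15 (chr4:156200819-156200918, minus strand): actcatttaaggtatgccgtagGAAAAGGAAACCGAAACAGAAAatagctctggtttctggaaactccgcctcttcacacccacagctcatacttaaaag
Ifit1 (chr19:34640765-34640864, plus strand): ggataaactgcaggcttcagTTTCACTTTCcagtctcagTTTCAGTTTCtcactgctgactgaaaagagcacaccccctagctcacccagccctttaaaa
Ifit3 (chr19:34583353-34583452, plus strand): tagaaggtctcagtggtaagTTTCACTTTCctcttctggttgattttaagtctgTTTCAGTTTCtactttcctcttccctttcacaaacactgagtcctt
Oas1a (chr5:120907526-120907643, minus strand): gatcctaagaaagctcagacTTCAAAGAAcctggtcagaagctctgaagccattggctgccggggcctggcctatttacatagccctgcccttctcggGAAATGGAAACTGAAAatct
Irf7 (chr7:141266425-141266524, minus strand): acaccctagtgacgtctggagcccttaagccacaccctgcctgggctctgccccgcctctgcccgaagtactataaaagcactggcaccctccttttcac
Oasl1 (chr5:114923140-114923239, plus strand): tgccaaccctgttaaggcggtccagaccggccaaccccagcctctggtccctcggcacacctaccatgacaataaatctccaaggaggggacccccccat
Psmb8 (chr17:34198078-34198177, plus strand): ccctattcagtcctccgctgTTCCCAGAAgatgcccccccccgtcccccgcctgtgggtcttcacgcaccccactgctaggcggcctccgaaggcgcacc
The Ifit3b stretch (chr19:34607749-34607848, plus strand) is the same as that of Ifit3 in all 100 bases. These genes are near-identical copies of each other, and their counts are uncertain because reads could be split between them.

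Library totals ran from 28493249 to 85922669 counts, and WT Ctr replicate 1 was the shallowest. In 3 WT libraries (WT Ctr replicates 2 and 4 and WT Tnpo3 replicate 4) a single gene, ENSMUSG00000119584, took 19.96% to 22.65% of the counts, against at most 5.3% in the others. Xist exceeded the Y-linked genes in 3 WT libraries and in 0 P635L libraries, so sex and genotype are partly confounded. Cardiomyocyte markers, 7 genes, summed to 53400 to 92900 CPM (each count scaled to its library size with TMM factors) and were present in all 16 libraries. In P635L Ctr against WT Ctr, 5 of 5 fibroblast markers were called higher and 4 of 7 cardiomyocyte markers lower. In such bulk tissue, fewer cells of a type and less RNA per cell cannot be told apart. The parts of cell makeup, sex and the abundant gene in the results below were not tested, apart from the fits named with them.

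On a scale per gene length (TPM, computed from the deposited counts and lengths), the most abundant of the 39 were Ifi27l2a with a median of 249 TPM over the 16 libraries, Bst2 with 137 TPM, which encodes the virion tether tetherin, and Ifi27 with 109 TPM. Isg15, a ubiquitin-like modifier, had a median of 42.4 TPM, and Irf7 one of 28.9 TPM. At the other end lay Oas3 with 0.208 TPM, Mx1 with 1.53 TPM and Zbp1, a sensor of Z-form nucleic acid, with 2.01 TPM. Inbred C57BL/6 mice are known to carry a defective Mx1 allele.

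For most of the 39 genes 1 wild-type heart stood above all others. WT Ctr replicate 1 had the highest CPM of the 16 libraries for 33 of the 39 genes, a place it held for 10.4% of all genes tested. The 39 genes summed to 2210 CPM in it and to 771 to 1280 CPM in the other 15 libraries. Set against the mean of the other 3 WT Ctr libraries, its level was a median of 1.82 times as high over the 39 genes, beside 0.989 times over all genes. The ratio ran from 1.02 for Trim25, a ubiquitin ligase of the RIG-I pathway, to 8.26 for Zbp1. It was at least 3 for 8 genes: Zbp1, Oas3, Mx1, Gbp2, Psmb8, Psmb9, Tap1 and Ifit3. Over all genes tested, 3.37% reached this ratio.

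**Figure D1:**
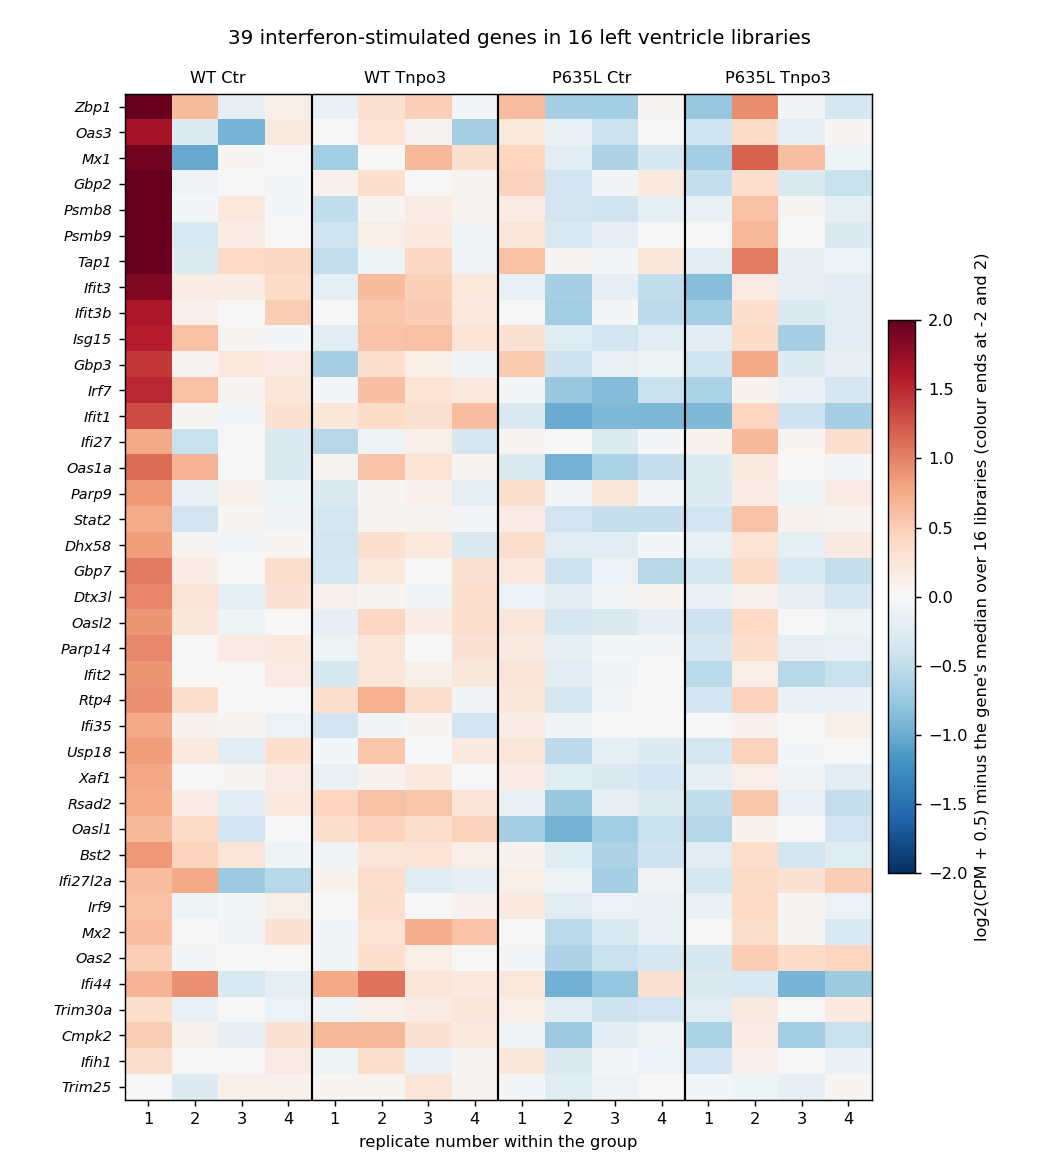
Each row is 1 of the 39 genes, ordered by the ratio of WT Ctr replicate 1 to the other WT Ctr libraries, and each column 1 library; colour is log2(CPM + 0.5) minus the median of the gene over the 16 libraries. The first column is the reddest for 33 of 39 genes, and P635L Ctr replicate 1 and P635L Tnpo3 replicate 2 stand out within their groups.

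Antigen-processing genes were among those with the largest excess in this library. Psmb8, an immunoproteasome subunit, was at 210 CPM in WT Ctr replicate 1 and at 41.4, 49.4 and 42.2 CPM in replicates 2 to 4. In P635L Ctr it was at 47.9, 33.1, 32.3 and 37.1 CPM, and in the Tnpo3 groups it ran from 30.3 to 64 CPM. Tap1, which pumps peptides into the endoplasmic reticulum for class I loading, was at 125 CPM in that library and at 25.6, 40.6 and 41.2 CPM in the other WT Ctr libraries. In every other library Tap1 stayed at or below 62.8 CPM, the value in P635L Tnpo3 replicate 2. Tap1 and Psmb9 overlap at their ends on opposite strands, from 34406527 to 34406738 on chromosome 17. Whether strand was used in counting is not given in the sources used here, so reads in that stretch cannot be told apart with certainty. The guanylate-binding protein gene Gbp2 had a ratio of 4.76, whereas its relatives Gbp3 and Gbp7 had ratios of 2.43 and 1.83.

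Genes of interferon gamma and of lymphocytes were high in the same library. Ifng itself had 64 counts there and 0 to 5 in each other library. A list of 17 further genes known to respond to interferon gamma summed to 1910 CPM in WT Ctr replicate 1 and to 230 to 515 CPM elsewhere, and 16 of the 17 were highest there. Class II antigen presentation genes (6 of 6 highest there) summed to 2910 CPM against 166 to 801 CPM. T cell markers, 12 genes, summed to 143 CPM against 3.42 to 11.3 CPM, with 12 of 12 highest in this library. Markers of cytotoxic and natural killer cells, 8 genes, summed to 94.8 CPM against 1.71 to 5.05 CPM, with 7 of 8 highest. Macrophage and monocyte markers, 10 genes, summed to 1270 CPM against 340 to 921 CPM, with 10 of 10 highest. None of these marker genes was at 0 in all 16 libraries. B cell markers reached 72 CPM against 15.5 to 49.4 CPM, and 3 of 8 were highest there. Thymocyte markers were at 5.86 CPM against 2.26 to 5.65 CPM. What part these cells have in the level of the 39 genes was not tested. The labels record no reason for the difference of this mouse from its group. The counts over the 39 genes in each comparison, and the value of each gene in P635L Ctr against WT Ctr, are given below with and without it.

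**Figure D2:**
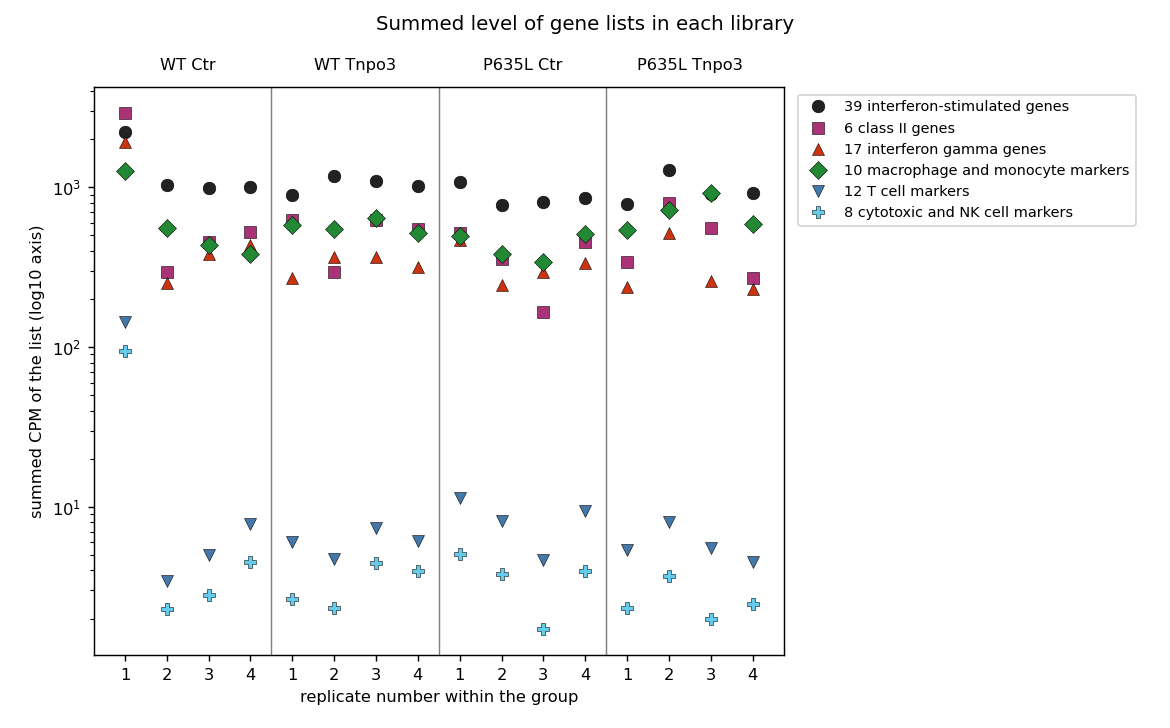
Summed CPM of 6 gene lists (log10 axis) in each of the 16 libraries, grouped by genotype and virus. All 6 sums peak in WT Ctr replicate 1, where T cell markers reach 143 CPM against 3.42 to 11.3 CPM elsewhere.

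Type I and type III interferon genes themselves were nearly silent. Of Ifnb1, Ifna1, Ifna2, Ifna4, Ifna5, Ifne, Ifnk, Ifnl2 and Ifnl3, none had more than 8 counts in any library, and those 8 were counts of Ifnb1 in P635L Tnpo3 replicate 4. Ifna1, Ifna5, Ifne, Ifnl2 and Ifnl3 had 0 counts in all 16 libraries. A count of 0 allows up to 3 counts per library, so a low level would not have been detectable at this depth.

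The mutation was examined first under the control virus. In P635L Ctr against WT Ctr, 39 of 39 genes had a negative log2 fold change, with a median of -0.53, where the median over all genes tested was -0.05 and 45.0% were positive. The test called 7 of the 39 lower and 0 higher (edgeR, adjusted p under 0.05 over all genes), beside 7.14% of all genes called lower. They were the IFIT genes Ifit1, Ifit3 and Ifit3b, the OAS genes Oas1a and Oasl1, the transcription factor gene Irf7, and Bst2. With WT Ctr replicate 1 left out, 31 of 39 were negative, the median was -0.17, and 4 were called lower, beside 6.55% of all genes: Ifit1, Oas1a, Oasl1 and Irf7. These 4 genes were among the 7 called with all libraries. Leaving out P635L Ctr replicate 2, 3 or 4 gave the same 4 genes, and leaving out WT Ctr replicate 3 gave 11. For alternative fits other than the one without WT Ctr replicate 1, the share of all genes called is not given here. Their counts of called genes cannot be set against it. In the fit with all libraries the T cell marker Cd4, the cytotoxic marker Gzma and the macrophage marker Cd68 were called lower as well, and their part in the result was not tested.

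Irf7, the amplifier of type I interferon production (ENSMUSG00000025498, chromosome 7, 140842619 to 140846394, minus strand, GRCm39), was at 130, 68.1, 46.3 and 53.8 CPM in WT Ctr replicates 1 to 4. It was at 44.2, 26.5, 24.5 and 33.1 CPM in P635L Ctr replicates 1 to 4. Every P635L Ctr library lay below every WT Ctr library. The log2 fold change was -1.22 (SE 0.28, edgeR adjusted p = 0.00789), and -0.80 (SE 0.21, edgeR adjusted p = 0.0158) without WT Ctr replicate 1. Irf7 overlaps Phrf1 on the opposite strand, which had 23289 counts over all libraries against 31356 for Irf7.

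Ifit1, which binds viral RNA lacking a cap methylation (chromosome 19, 34618271 to 34627409, plus strand, GRCm39), was at 40, 16.4, 15.5 and 19.9 CPM in WT Ctr. In P635L Ctr it was at 12.9, 7.8, 8.42 and 8.36 CPM. Its P635L Ctr libraries lay below all 8 WT libraries, since WT Tnpo3 ran from 18.8 to 24.8 CPM. The log2 fold change was -1.29 (SE 0.32, edgeR adjusted p = 0.0113) and -0.88 (SE 0.25, edgeR adjusted p = 0.0287) without WT Ctr replicate 1. Ifit3 was at 95.1, 28.7, 28.7 and 33.5 CPM in WT Ctr. In P635L Ctr it was at 23.4, 16.1, 23 and 18.2 CPM, again without overlap. For Ifit3 the log2 fold change of -1.20 (edgeR adjusted p = 0.032) became -0.59 (edgeR adjusted p = 0.0794) when WT Ctr replicate 1 was left out. The Ifit3 call also ended when any 1 of the 4 P635L Ctr libraries was left out. Ifit3b was at 21.7, 7.26, 6.74 and 9.71 CPM in WT Ctr and at 6.8, 3.99, 6.66 and 4.56 CPM in P635L Ctr, with overlap. It stood at -1.05 (edgeR adjusted p = 0.0436) and at -0.53 (edgeR adjusted p = 0.177) without WT Ctr replicate 1. The Ifit3b call ended in addition when WT Ctr replicate 4, WT Tnpo3 replicate 2, 3 or 4, any 1 P635L Ctr library, or P635L Tnpo3 replicate 3 or 4 was left out. Ifit2 averaged 29.7 ± 9.77 CPM with wild-type RBM20 and 23.8 ± 3.43 CPM with the mutation (SD, n = 4 each, control virus), and it was not called. WT Ctr replicates 2 to 4 alone averaged 24.9 ± 1.74 CPM (SD, n = 3), almost level with the mutant group, and the Ifit2 log2 fold change went from -0.32 to -0.06 without replicate 1.

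The 2',5'-oligoadenylate synthetases make the second messenger that activates RNase L, and the family was uneven. Oas1a belongs to a cluster of similar Oas1 copies, between which reads could be split, so its counts are uncertain. It (chromosome 5, 121034319 to 121045584, minus strand, GRCm39) was at 21.3, 15.7, 9.59 and 7.8 CPM in WT Ctr and at 7.79, 4.72, 5.98 and 6.82 CPM in P635L Ctr. The groups did not overlap, but the nearest libraries, at 7.8 and 7.79 CPM, were almost level. The Oas1a log2 fold change was -1.10 (SE 0.25, edgeR adjusted p = 0.00636), and -0.80 (SE 0.22, edgeR adjusted p = 0.0212) without WT Ctr replicate 1. Oasl1, an inhibitor of Irf7 translation in mice (chromosome 5, 115061299 to 115075974, plus strand, GRCm39), was at 7.78, 6.35, 3.54 and 4.72 CPM in WT Ctr and at 2.81, 2.24, 2.76 and 3.35 CPM in P635L Ctr. Its 4 mutant libraries lay below all 8 WT libraries. For Oasl1 the fit gave -1.0 (SE 0.22, edgeR adjusted p = 0.00529), and -0.80 (SE 0.22, edgeR adjusted p = 0.021) without WT Ctr replicate 1. The relatives Oas2, Oasl2 and Oas3 had log2 fold changes of -0.47, -0.44 and -0.93 and were not called. With WT Ctr replicate 1 left out they were at -0.33, -0.17 and 0.42, so the sign of Oas3 turned.

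Over the 39 genes, 5 had every P635L Ctr library below every WT Ctr library (Ifit1, Ifit3, Oas1a, Oasl1 and Irf7), beside 9.43% of all genes. For 3 of them (Ifit1, Oas1a and Oasl1), every P635L Ctr library also lay below all 8 WT libraries, beside 5.29% of all genes. Bst2 was at 101, 75.2, 65.6 and 51.8 CPM in WT Ctr and at 57.9, 46.6, 36 and 41.4 CPM in P635L Ctr, so its groups overlapped. The Bst2 value of -0.69 on the log2 scale (SE 0.20, edgeR adjusted p = 0.0231) became -0.50 (edgeR adjusted p = 0.0839) without WT Ctr replicate 1. The Bst2 call also ended when WT Ctr replicate 2 or P635L Ctr replicate 2, 3 or 4 was left out.

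**Figure D3:**
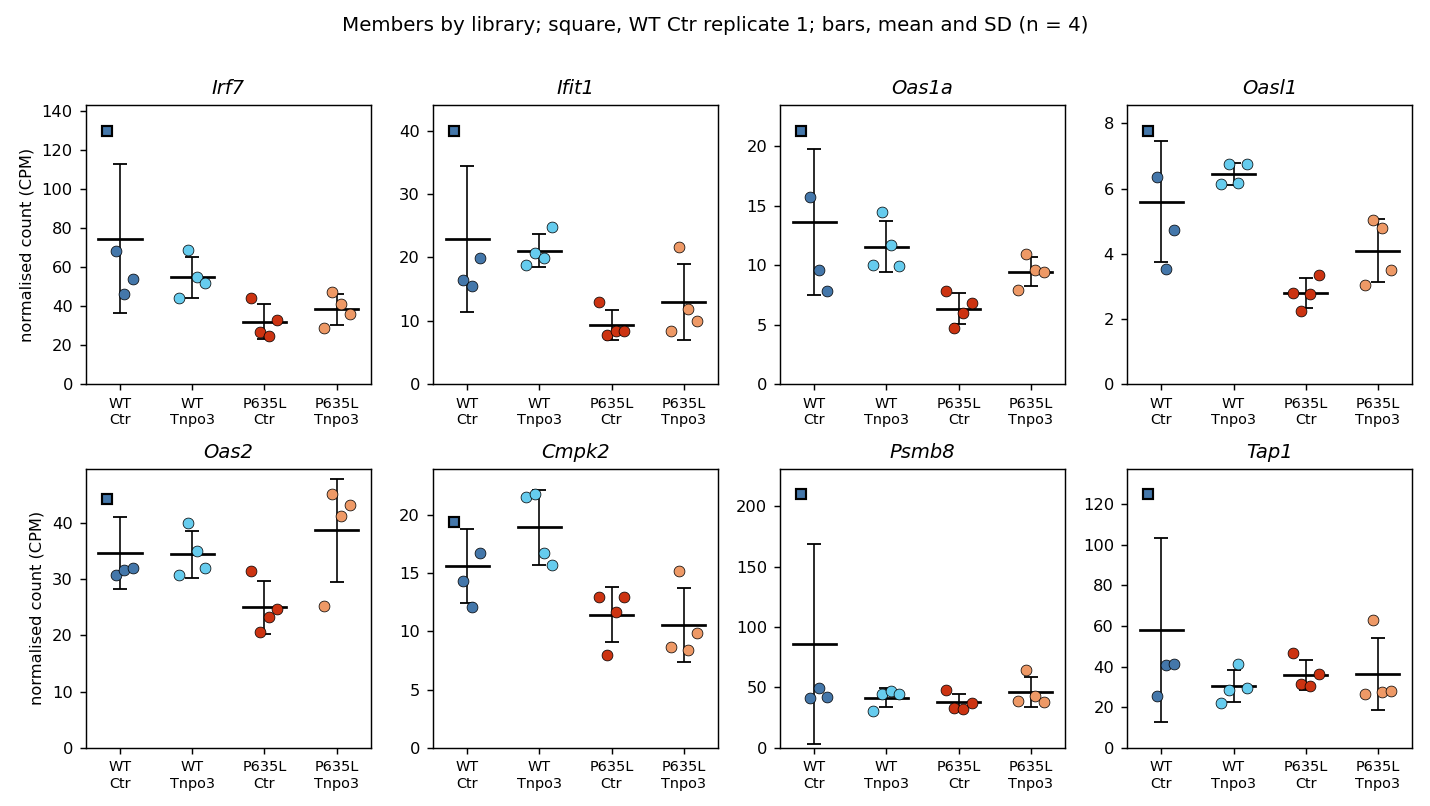
Normalised counts (CPM) of 8 of the genes in every library by group, with group means and SDs (n = 4); the square marks WT Ctr replicate 1. Irf7, Ifit1, Oas1a and Oasl1 are lower in P635L Ctr than in WT Ctr without overlap, while Psmb8 and Tap1 differ by that 1 library.

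Genes of the complex that carries the type I signal were not called. Stat2 was at 82.4, 37.7, 50.4 and 46.8 CPM in WT Ctr and at 55.2, 37.8, 35.5 and 35.5 CPM in P635L Ctr, which overlap. The fit gave Stat2 -0.40 on the log2 scale (SE 0.23, edgeR adjusted p = 0.258), and -0.13 without WT Ctr replicate 1. Irf9, the DNA-binding subunit, was at 52.2, 32.3, 34.2 and 37.5 CPM in WT Ctr and at 39.8, 29.9, 31.9 and 31.3 CPM in P635L Ctr, with overlap. The fit gave Irf9 -0.23 (SE 0.16, edgeR adjusted p = 0.349), and -0.06 without WT Ctr replicate 1. Irf9 overlaps the end of Rnf31 on the same strand, and its counts are uncertain for reads in the stretch they share. Among the sensors, Ifih1, which encodes the RNA receptor MDA5, was at 18.6, 14.4, 14.7 and 16.3 CPM in WT Ctr and at 17.1, 11.8, 14.3 and 13.4 CPM in P635L Ctr. Its value was -0.18 (SE 0.15, edgeR adjusted p = 0.462), and -0.09 without that library. A p above the threshold does not show that the levels were the same. Dhx58, which encodes the RNA sensor LGP2, and Zbp1 were not called either. Dhx58 went from -0.30 with all libraries to -0.03 without WT Ctr replicate 1. Zbp1, the gene with the highest ratio in that library, went from -1.85 to -0.35 (edgeR adjusted p = 0.10 and 0.644).

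Of the effectors outside the IFIT and OAS families, Bst2 was called, and the others had values below 0 with all libraries and were not called. Isg15 was at 38, 18.8, 12.6 and 12.2 CPM in WT Ctr and at 15.3, 10.4, 9.35 and 10.7 CPM in P635L Ctr, with overlap. Its log2 fold change was -0.83 (SE 0.33, edgeR adjusted p = 0.108), and -0.34 (edgeR adjusted p = 0.411) without WT Ctr replicate 1. Rsad2, which encodes viperin, was at 60.7, 39.9, 30.7 and 41.4 CPM in WT Ctr and at 32.7, 21.1, 32.3 and 29.7 CPM in P635L Ctr, also with overlap. The fit gave Rsad2 -0.58 on the log2 scale (SE 0.23, edgeR adjusted p = 0.108), and -0.36 without that library. Usp18, the protease that removes ISG15 and restrains the receptor, stood at -0.53, and at -0.30 without it, and was not called. Mx1 was at 9.37, 0.784, 2.14 and 2.09 CPM in WT Ctr and at 2.97, 1.73, 1.19 and 1.58 CPM in P635L Ctr. Its sign depended on 1 library: -0.94 with WT Ctr replicate 1 and 0.14 without it. Tap1, at 46.5, 31.2, 30.4 and 36.2 CPM in P635L Ctr, likewise went from -0.69 to 0.01, and Psmb8 from -1.19 (edgeR adjusted p = 0.0954) to -0.24 (edgeR adjusted p = 0.46). Psmb9 and the guanylate-binding protein genes Gbp2, Gbp3 and Gbp7 had values of -0.89, -0.84, -0.58 and -0.65, also without calls. When WT Ctr replicate 1 was left out, Psmb9 was level between the groups at 0.0, the sign of Gbp2 turned to 0.12, and Gbp3 and Gbp7 were at -0.14 and -0.38. The other 13 effectors and regulators (Ifi27, Ifi27l2a, Ifi35, Ifi44, Mx2, Xaf1, Rtp4, Parp9, Parp14, Dtx3l, Trim25, Trim30a and Cmpk2) ran from -0.60 for Ifi44 to -0.08 for Trim25, and none of them was called. In the fit without that heart they ran from -0.46 for Ifi44 to 0.20 for Parp9, and Ifi27 (0.17) and Ifi35 (0.03) turned positive as well. Parp9 overlaps Dtx3l, and Rtp4 overlaps Masp1, on opposite strands, so the counts of these genes are uncertain in the way described for Tap1 and Psmb9.

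**Figure D4:**
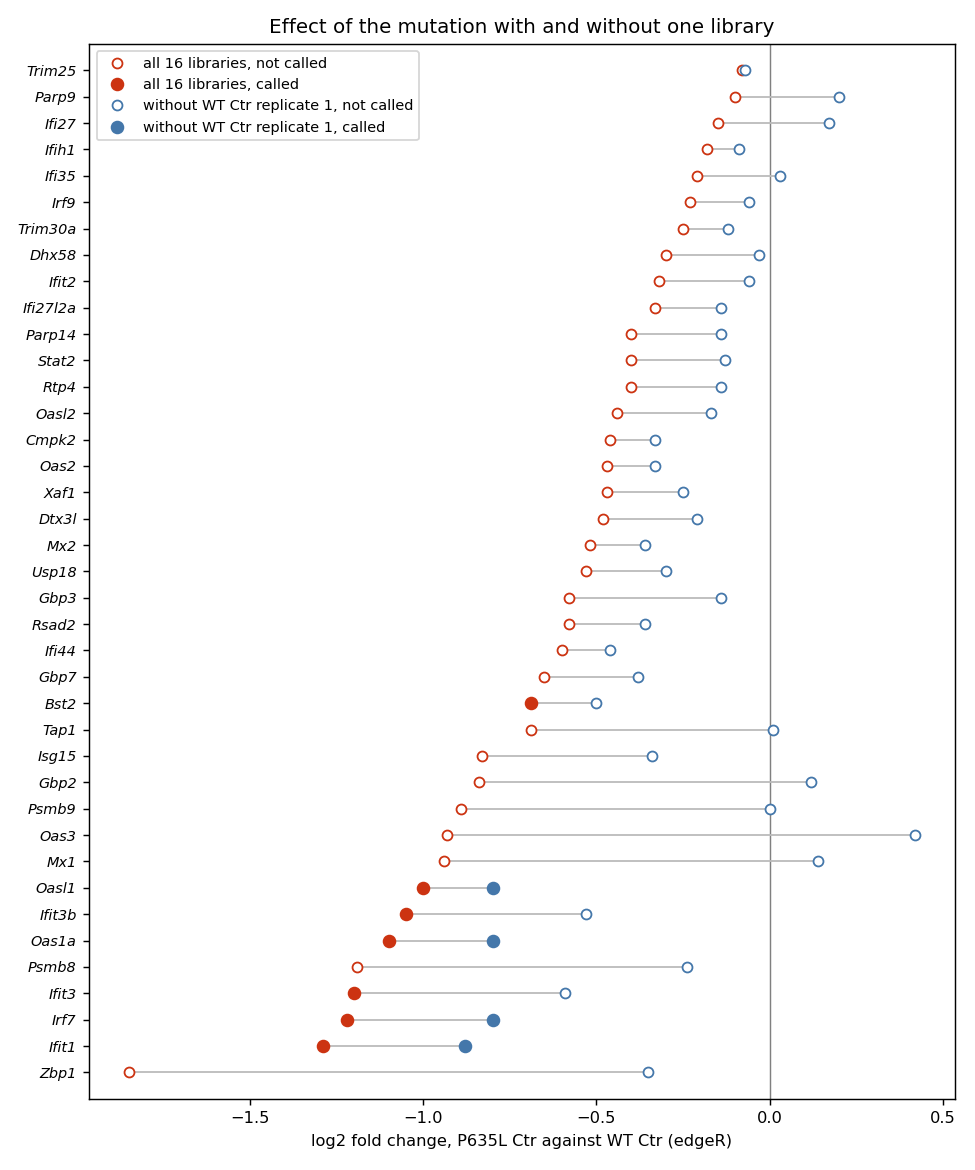
Log2 fold change of each of the 39 genes in P635L Ctr against WT Ctr with all 16 libraries (red) and without WT Ctr replicate 1 (blue); filled points were called at an edgeR adjusted p under 0.05. All red points lie below 0, 31 of 39 blue points do, and 4 genes are filled in both colours.

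Other genes of the pathway came from lists outside the 39. Of 34 tested genes on a second list of interferon-stimulated genes, 31 were negative and 4 were called lower (Ifi204, Herc6, Samd9l and Ly6a), with a median of -0.30. Without WT Ctr replicate 1, 0 of 35 were called lower (9 had an unadjusted p under 0.05), 1 was called higher (Ifi211, 0.79), and the median was -0.10. The 17 interferon gamma genes had a median of -1.03 with all libraries, with Gbp9 called lower (-1.03). Without that library their median was 0.03, and Cxcl9 (1.72, edgeR adjusted p = 0.00305), a chemokine that attracts T cells, and Gbp6 (1.76, edgeR adjusted p = 0.0306) were called higher in P635L Ctr. Class I genes gave a median of -0.37 with the proteasome activator gene Psme1 called lower (-0.65), and without that library a median of -0.04 with 0 of 9 called by edgeR (2 had an unadjusted p under 0.05). Class II genes had a median of -1.42 with all libraries and -0.17 without that library, with 0 of 6 called by edgeR in both (3 and 0 had an unadjusted p under 0.05). Of 16 receptor and signalling genes, Ifngr1, a receptor chain for interferon gamma, was called higher (0.42, edgeR adjusted p = 0.0284), and also without that library (0.50, edgeR adjusted p = 0.0184). Of 16 tested nucleic acid sensing genes, 0 were called in either fit with edgeR, and 2 had an unadjusted p under 0.05 in each.

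Markers of blood and vessel cells gave no calls in this comparison once that heart was left out. Of 12 T cell markers 11 were positive, with a median log2 fold change of 0.87, 0 were called with edgeR and 4 had an unadjusted p under 0.05. The T cell marker sum was 3.42 to 7.8 CPM in WT Ctr replicates 2 to 4 and 4.65 to 11.3 CPM in P635L Ctr. Macrophage and monocyte markers summed to 384 to 556 CPM and 340 to 508 CPM in these groups, and the median over their log2 fold changes was 0.02. Endothelial markers summed to 882 to 1010 CPM and 785 to 916 CPM, and their median log2 fold change without WT Ctr replicate 1 was -0.11 with 0 of 5 called (0 had an unadjusted p under 0.05). The fits that follow kept WT Ctr replicate 1. With a yes-or-no covariate for Xist above the Y-linked genes (the Xist covariate), 6 of the 7 genes were called again. The exception was Ifit3b (edgeR adjusted p = 0.0556). That covariate was yes only in WT Ctr replicate 4 and WT Tnpo3 replicates 2 and 4, and so in no P635L library. Without the 3 libraries rich in ENSMUSG00000119584, WT Ctr held only replicates 1 and 3. All 7 genes were then called, and Psmb8 as well (edgeR adjusted p = 0.0277). Psmb8 was at 210 CPM in WT Ctr replicate 1 and at 49.4 CPM in WT Ctr replicate 3.

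Under the Tnpo3 virus the mutation can be read without any WT Ctr library. In P635L Tnpo3 against WT Tnpo3, 26 of 39 genes were negative with a median of -0.17, beside -0.02 over all genes. The test called 1 lower, beside 2.0% of all genes, and the fit without WT Ctr replicate 1 called the same gene, beside 2.22%. It was Cmpk2 (chromosome 12, 26519203 to 26529836, plus strand, GRCm39), a mitochondrial nucleotide kinase gene next to Rsad2. Cmpk2 was at 21.6, 21.8, 16.7 and 15.7 CPM in WT Tnpo3 and at 8.66, 15.2, 8.37 and 9.84 CPM in P635L Tnpo3, without overlap. Its log2 fold change was -0.85 (SE 0.20, edgeR adjusted p = 0.0279). The call ended, with edgeR adjusted p up to 0.0963, when WT Tnpo3 replicate 1 or 2 or P635L Tnpo3 replicate 1, 3 or 4 was left out, and with the Xist covariate. Leaving out WT Ctr replicate 2, WT Tnpo3 replicate 3 or 4, or P635L Tnpo3 replicate 2 gave 2 called genes. With the control virus Cmpk2 stood at -0.46 (edgeR adjusted p = 0.151). In 4 genes (Ifi44, Oasl1, Trim25 and Cmpk2) every P635L Tnpo3 library lay below every WT Tnpo3 library, beside 5.7% of all genes. Ifi44 was at 10.9, 13.8, 7.52 and 7.23 CPM in WT Tnpo3 and at 5.03, 4.99, 3.06 and 3.62 CPM in P635L Tnpo3. It had the lowest value of the 39, -1.24 on the log2 scale, and was not called (edgeR adjusted p = 0.0603).

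The 4 genes called under the control virus had negative values under the Tnpo3 virus as well, without being called. Ifit1 stood at -0.70 (edgeR adjusted p = 0.218), Oasl1 at -0.65 (edgeR adjusted p = 0.105), Irf7 at -0.51 (edgeR adjusted p = 0.316) and Oas1a at -0.29 (edgeR adjusted p = 0.555). In the fit without WT Ctr replicate 1 they stood at -0.70, -0.66, -0.52 and -0.29, again without calls. The control-virus and Tnpo3-virus comparisons share no library. Of the 39 genes, 26 were negative in both and 13 had opposite signs, where 35.8% of all genes tested were negative in both. Since all 39 were negative under the control virus, these 26 are simply those negative under the Tnpo3 virus. Without WT Ctr replicate 1, 25 were negative in both, 7 positive in both and 7 opposite, where 35.4% of all genes were negative in both.

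Apart from Oasl1, Cmpk2 and Ifi44, the genes given by library overlapped between the genotypes under the Tnpo3 virus. Ifit1 was at 18.8, 20.7, 19.9 and 24.8 CPM in WT Tnpo3, and the second mutant library, at 21.7 CPM, was the one P635L Tnpo3 library in that range. Irf7 was at 44, 69, 54.8 and 51.6 CPM in WT Tnpo3, and Oas1a at 10, 14.5, 11.7 and 9.91 CPM. For both, P635L Tnpo3 replicate 2 was again the highest of the mutant group. Oasl1, an exception without overlap, was at 6.13, 6.76, 6.18 and 6.74 CPM in WT Tnpo3. Ifit3 was at 22.8, 40.5, 36.3 and 30.2 CPM in WT Tnpo3 and at 14.2, 29.1, 23 and 22 CPM in P635L Tnpo3. Its copy Ifit3b was at 6.74, 10.2, 9.84 and 7.83 CPM and 3.98, 8.65, 5.45 and 5.68 CPM. In both copies the first mutant library was the lowest of the 8 and the second mutant library lay within the WT range. Bst2 was at 52.7, 65.3, 67.1 and 59.9 CPM in WT Tnpo3 and at 47.9, 70.5, 42.6 and 46.7 CPM in P635L Tnpo3. Rsad2 had 48.8, 54.2, 53.4 and 43.5 CPM against 25.5, 53.4, 32.6 and 25.8 CPM. For these 2 genes 3 of the 4 mutant libraries lay below every WT Tnpo3 library.

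Among regulators and sensors, Stat2 was at 38.6, 51.2, 51 and 48.1 CPM in WT Tnpo3 and at 37.7, 73.2, 51.7 and 51.3 CPM in P635L Tnpo3. Irf9 had 34.8, 43.9, 34.5 and 36.7 CPM against 31.5, 45.6, 36.2 and 31.9 CPM, and Ifih1 had 13.6, 18.5, 13.3 and 15.2 CPM against 11, 15.6, 14.7 and 13.2 CPM. In each of the 3 genes the groups overlapped. Isg15 was at 10.6, 18.7, 18.9 and 15.1 CPM in WT Tnpo3 and at 10.7, 16.1, 7.65 and 10.6 CPM in P635L Tnpo3. Mx1 had 1.12, 2.09, 3.55 and 2.74 CPM against 1.1, 5.35, 3.42 and 1.93 CPM. The antigen-processing gene Psmb8 was at 30.3, 44.4, 47.3 and 44.4 CPM in WT Tnpo3 and at 38.9, 64, 43.2 and 37.8 CPM in P635L Tnpo3, and Tap1 at 22.1, 28.6, 41.2 and 29.4 CPM and 26.6, 62.8, 27.4 and 28.2 CPM. P635L Tnpo3 replicate 2 was the highest of the mutant libraries in all 7 of these genes. Cmpk2 was at 19.4, 14.3, 12.1 and 16.7 CPM in WT Ctr and at 13, 8.01, 11.7 and 13 CPM in P635L Ctr, with overlap. Oas2 was at 44.3, 30.8, 31.6 and 31.9 CPM in WT Ctr and at 30.7, 40, 35 and 31.9 CPM in WT Tnpo3, also with overlap.

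**Figure D5:**
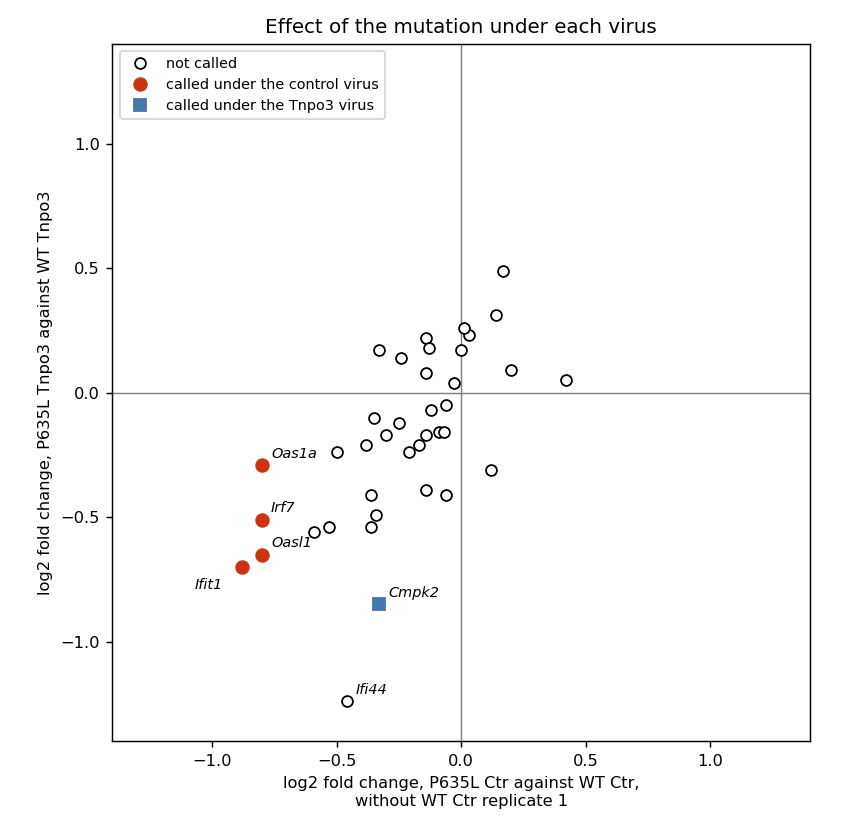
Log2 fold change of each of the 39 genes for the mutation under the control virus, without WT Ctr replicate 1 (x), and under the Tnpo3 virus (y). Ifit1, Oas1a, Oasl1 and Irf7 (red) are negative on both axes, and Cmpk2 (blue) is the one called under the Tnpo3 virus.

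A contrast of both P635L groups with both WT groups was added after the data had been seen. It called 11 of the 39 genes lower and 0 higher, beside 9.93% of all genes called lower, with a median of -0.36. They were Ifit1 (-1.0), Ifi44 (-0.92), Ifit3 (-0.88), Irf7 (-0.87), Oasl1 (-0.83), Ifit3b (-0.79), Oas1a (-0.70), Cmpk2 (-0.65), Rsad2 (-0.56), Bst2 (-0.46) and Mx2 (-0.46). The lowest adjusted p, 0.00115 (edgeR), was that of Oasl1. Without WT Ctr replicate 1, 10 were called, beside 10.2% of all genes, with Mx2 lost (edgeR adjusted p = 0.0833) and a median of -0.18. Without P635L Ctr replicate 2, 6 were called, and with the Xist covariate 8 were. None of the 39 had all 8 P635L libraries below all 8 WT libraries, where 1.54% of all genes did.

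The Tnpo3 virus was then compared with the control virus in mutant hearts, to ask whether the lower genes moved back. In P635L Tnpo3 against P635L Ctr, 30 of 39 genes were positive with a median of 0.12, beside 0.01 over all genes. Of the 39, 0 were called (3 had an unadjusted p under 0.05), beside 1.63% of all genes called higher. DESeq2 called 1. The smallest adjusted p was 0.0502 (edgeR), for Oas2, and the fit without WT Ctr replicate 1 called Oas2 (edgeR adjusted p = 0.0341), beside 1.94%. Oas2 (chromosome 5, 120868398 to 120887918, minus strand, GRCm39) was at 31.4, 20.5, 23.2 and 24.7 CPM in P635L Ctr and at 25.2, 45.1, 41.3 and 43.1 CPM in P635L Tnpo3. The first library of the Tnpo3 group stayed among the controls and the other 3 lay above all of them. Its log2 fold change was 0.63 (SE 0.18), and Oas2 was called in 10 of 26 alternative fits. Leaving out WT Tnpo3 replicate 4, P635L Ctr replicate 1 or P635L Tnpo3 replicate 1 also gave 1 called gene.

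Oas1a was the one gene of the 39 with every P635L Tnpo3 library above every P635L Ctr library, beside 9.36% of all genes. It was at 7.93, 10.9, 9.61 and 9.38 CPM with the Tnpo3 virus, and the highest control library had 7.79 CPM. Its log2 fold change was 0.58 (SE 0.25, edgeR adjusted p = 0.216). Oasl1 was at 3.05, 5.03, 4.79 and 3.51 CPM with the Tnpo3 virus, which overlaps P635L Ctr, and its log2 fold change was 0.56 (SE 0.22, edgeR adjusted p = 0.183). Irf7, at 29, 47.4, 41.2 and 35.8 CPM, and Ifit1, at 8.4, 21.7, 11.8 and 9.92 CPM, overlapped P635L Ctr as well, with 0.26 (SE 0.28) and 0.47 (SE 0.31). These 4 values were the same to 2 decimals without WT Ctr replicate 1, and none was called. The median over the 39 genes rested on P635L Tnpo3 replicate 2: without it the median was -0.03. Of 34 genes on the second list of interferon-stimulated genes, Samd9l was called higher (0.47, edgeR adjusted p = 0.0403). Macrophage and monocyte markers had higher sums in P635L Tnpo3 without overlap. They summed to 340 to 508 CPM in P635L Ctr and to 540 to 921 CPM in P635L Tnpo3, and 9 of 10 were positive with a median of 0.62. With all libraries 0 of the 10 were called with edgeR (7 had an unadjusted p under 0.05). Without WT Ctr replicate 1, 6 were called: C1qa, C1qb, C1qc, Cd68, Lyz2 and Mrc1. That library is in neither group of this comparison. Leaving it out changed the shared fit (estimate of spread, scaling and filter) and not the mice compared, for these markers as for Oas2. Fibroblast markers were called lower, 4 of 5 with all libraries. The part of these cells in the values of Oas2 and Oas1a was not tested. The comparisons of P635L Ctr with WT Ctr and with P635L Tnpo3 share the P635L Ctr libraries, so opposite signs between them are not independent observations.

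Against WT Ctr, P635L Tnpo3 hearts had 35 of 39 genes negative and a median of -0.45, but 0 were called (15 had an unadjusted p under 0.05), beside 3.07% of all genes called in either direction. DESeq2 called 2. Without WT Ctr replicate 1, 25 were negative, the median was -0.12, and 0 were called with edgeR (6 had an unadjusted p under 0.05), beside 3.58%. Leaving out WT Ctr replicate 3 gave 2 calls and leaving out P635L Tnpo3 replicate 2 gave 1.

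In wild-type hearts the cargo of the virus made no called difference. In WT Tnpo3 against WT Ctr, 32 of 39 genes were negative with a median of -0.26, and 0 were called with edgeR or DESeq2 (4 had an unadjusted p under 0.05), beside 0.00536% of all genes. Leaving out WT Ctr replicate 1 turned the direction: 26 of 39 were positive, the median was 0.07, and 0 were called with edgeR (0 had an unadjusted p under 0.05), beside 0.00521%. The values of single genes without that library ran from -0.24 for Tap1 to 0.49 for Mx1.

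The interaction asks whether the virus effect differs between genotypes. It was positive in 35 of 39 genes with a median of 0.43, and 0 were called with edgeR or DESeq2 (2 had an unadjusted p under 0.05), beside 0.504% of all genes. Without WT Ctr replicate 1, 23 of 39 were positive with a median of 0.07, and 0 were called with edgeR (0 had an unadjusted p under 0.05), beside 0.416%. The largest values with all libraries were those of Zbp1 (1.75), Psmb8 (1.34) and Mx1 (1.26), which are genes of the high WT Ctr library, and without it they were 0.25, 0.38 and 0.17. A difference in virus effect between the genotypes was therefore not shown for any of the 39 genes.

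Within each mutant group most of the 39 genes were highest in the same mouse. P635L Ctr replicate 1 was the highest library of its group for 35 of 39 genes, and P635L Tnpo3 replicate 2 for 33 of 39, where these libraries led their groups for 23.0% and 21.7% of all genes. WT Ctr replicate 1 led for 36 of 39, beside 26.0%, and WT Tnpo3 replicate 2 for 21 of 39. The interferon gamma genes were also highest in those mutant libraries, with sums of 469 CPM in P635L Ctr replicate 1 against 246 to 338 CPM in the rest of the group, and 515 CPM in P635L Tnpo3 replicate 2 against 230 to 260 CPM. Ifng had 5 counts and 1 count in these 2 libraries. Class II genes summed to 517 CPM and 801 CPM there, also the highest of each group. T cell markers were at 11.3 CPM and 8.0 CPM, the highest of each group, where WT Ctr replicate 1 had 143 CPM.

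The authors' deposited tables of DESeq2 results cover 3 of these comparisons, each against WT Ctr and computed with WT Ctr as the numerator. They were read as deposited and are not given without WT Ctr replicate 1. For P635L Ctr, the authors' deposited table has 6 of the 39 genes at an adjusted p under 0.05, all higher in WT Ctr: Ifit1, Irf7, Oasl1, Oas1a, Bst2 and Ifit3b. There 7.93% of genes with an adjusted p were called in that direction. For P635L Tnpo3, the authors' deposited table has 2 (Ifi44 with adjusted p = 0.0361 and Irf7 with adjusted p = 0.0241, DESeq2), beside 3.23% of its genes. For WT Tnpo3 the authors' deposited table has 0 of the 39, beside 0.00411% of its genes. Gbp2, Psmb8 and Zbp1 have no adjusted p in any of the 3, and all 3 are among the 8 genes with ratios of at least 3 in WT Ctr replicate 1.

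RBM20 is a splicing regulator, so splicing events in the 39 genes were read from the authors' deposited rMATS tables. Each of these sets WT Ctr against another group, and the values are not given without WT Ctr replicate 1. An event counted as changed at a false discovery rate (FDR) under 0.05, when inclusion moved by 0.1 or more, and when both groups averaged 10 or more junction reads. Of 117 events in 28 of the genes, 2 passed between WT Ctr and P635L Ctr, beside 1.97% of all events in the authors' deposited table. Both were skipped exons: in Trim25 inclusion was 0.711 to 0.922 in WT Ctr and 0.981 to 1 in P635L Ctr (FDR 0.00797), without overlap. In Mx2 it was 0.538 to 1 in WT Ctr and 0.75 to 1 in P635L Ctr (FDR 0.0204), with overlap and means of 11.2 and 14.8 reads. Between WT Ctr and P635L Tnpo3, 0 of 122 events passed in the authors' deposited table, beside 1.65% of all events. Between WT Ctr and WT Tnpo3, 1 of 112 passed in the authors' deposited table, beside 0.731%: a skipped exon of Irf9 with mean inclusion 0.251 in WT Ctr and 0.0698 in WT Tnpo3 (FDR 0.00243), in the gene that overlaps Rnf31. None of the 4 genes called lower with and without WT Ctr replicate 1 had a passing event in these tables. Between WT Ctr and WT Tnpo3, Irf7 had a skipped exon (FDR 0.00342, inclusion moved by -0.041) that fell short of 0.1 in size. An alternative 3' splice site of Irf7 (FDR 0.000519, -0.065) fell short in the same way. The number of events in these 4 genes is not given here, so their splicing was not shown to be unchanged.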

How the data were processed

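Left ventricles of 16 mice, 4 in each of 4 groups, were sequenced as polyadenylated RNA with a directional kit, per the labels' protocols. Raw gene counts were deposited by the authors, and STAR 2.7.9a, featureCounts 2.0.6 and the build GRCm39 are named in the submitters' processing notes. Whether strand was used in counting is not given in the sources used here. The authors also deposited DESeq2 tables with log2 fold changes and adjusted p-values, and rMATS splicing tables with inclusion as a fraction and an FDR (a p-value adjusted over events). These were read as deposited.

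Counts were tested with edgeR 4.0.16 in R 4.3.3: TMM factors, the default filter on low counts, 1 mean per group over 16 libraries, a robust quasi-likelihood fit with 12 residual degrees of freedom and Benjamini-Hochberg adjustment over all 18662 genes. CPM use TMM factors, and heatmap colours add a pseudocount of 0.5. DESeq2 1.42.0 was an alternative. The functions were checked on simulated counts. Other alternatives were RLE and upper-quartile factors, library sizes without the most abundant gene, other filters and fits on the compared groups. The rest were a replicate block, a yes-or-no covariate for Xist above the Y-linked genes, and leaving out libraries. Gene symbols came from the splicing tables (11276) and a supplied name table (40786), and 4891 genes kept identifiers.

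Each library is a separate mouse, per the labels. The 39 genes and the other lists were chosen with earlier results of these data known. Given with every library are the genes called in any of the 6 comparisons, with all libraries or without WT Ctr replicate 1, and Isg15, Irf7, Stat2, Irf9, Ifih1, Mx1, Oas1a, Rsad2, Psmb8 and Tap1 for their roles. Other genes are named to account for a count or were singled out after their values were seen.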

Additional observations from a re-analysis of the deposited data

Results flagged for a closer look

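Among 17 named genes in 4 groups of 4 mice each (68 groups of values), 8 had a highest library whose gap to the next, divided by the range of the group, exceeded Dixon's 95% critical value. Chance marks about 1 in 20 such groups, and the genes are not independent of each other. WT Ctr replicate 1 was the high library in 5 of the 8. In it Ifit3 was at 95.1 CPM (28.7 to 33.5 CPM in the other 3), Oas2 at 44.3 CPM (30.8 to 31.9), Mx1 at 9.37 CPM (0.784 to 2.14), Psmb8 at 210.0 CPM (41.4 to 49.4) and Tap1 at 125 CPM (25.6 to 41.2).

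P635L Ctr replicate 1 was high for Ifit1 at 12.9 CPM (7.8 to 8.42 CPM in the other 3) and for Stat2 at 55.2 CPM (35.5 to 37.8). P635L Tnpo3 replicate 2 was high for Tap1 at 62.8 CPM (26.6 to 28.2).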

How the results depend on the processing

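Irf7, Oas1a and Oasl1 were called lower in P635L Ctr against WT Ctr in all 26 alternatives (edgeR or DESeq2 adjusted p at most 0.0476). Ifit1 was called in 25, the exception being no low-count filter (edgeR adjusted p = 0.0558). Every alternative except the fit without WT Ctr replicate 1 kept that library, so the other choices were not tried without it. The count of 7 for P635L Ctr against WT Ctr became 4 without a low-count filter and 4 with the compared groups alone. It ran from 4 to 11 when 1 library was left out. For P635L Tnpo3 against P635L Ctr the count of 0 became 1 with RLE factors, upper-quartile factors, library sizes without the most abundant gene, no low-count filter, DESeq2, the compared groups alone, or without the 3 libraries rich in ENSMUSG00000119584, and ran from 0 to 1 when 1 library was left out. The gene called in those fits was Oas2, except with the compared groups alone, where Oas2 was not called. For P635L Tnpo3 against WT Ctr the count was 2 with DESeq2 and ran from 0 to 2 when 1 library was left out.

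For P635L Tnpo3 against WT Tnpo3 the count of 1 became 3 with DESeq2, 2 with the compared groups alone, 2 without the 3 rich libraries, 0 with the Xist covariate and 0 when a log2 fold change of at least 1 in size was also required, and ran from 0 to 2 when 1 library was left out. For both P635L against both WT groups the count of 11 became 6 without a low-count filter and 0 with the fold requirement, and ran from 6 to 15 when 1 library was left out. Without WT Ctr replicate 1, 8 of the 39 genes were positive in P635L Ctr against WT Ctr, where 0 were with all libraries, among them Oas3 (0.42), Mx1 (range over libraries left out -1.24 to 0.14) and Tap1 (-0.91 to 0.01). The sign also turned without it for the median of WT Tnpo3 against WT Ctr (-0.34 to 0.07), and without P635L Tnpo3 replicate 2 for the median of P635L Tnpo3 against P635L Ctr (-0.03 to 0.29). Beyond the leaving out of libraries, the cause of these shifts was not tested. With 4 mice per group, a p above the threshold does not show equal levels, and counts of Oas3 as low as 3 limit its precision. The counts of called genes in this section stand without the share of all genes called in the same fit. A change in such a count may therefore follow a change over all genes.

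Deviations of same-numbered libraries from their group means correlated at 0.0809 to 0.602 between WT Ctr and WT Tnpo3, with 3 of 4 pairs over 0.1 and 5 of 8 libraries closest to their own number, and at -0.269 to 0.21 between the other groups. WT Ctr replicate 4 and WT Tnpo3 replicate 4 shared Xist above the Y-linked genes and a high share of ENSMUSG00000119584 (21.22% and 22.65%). The labels give the numbers no shared litter, batch or day, and not every pair was over 0.1. The numbers were therefore not taken to pair the mice, but whether the WT mice were paired is not settled by these values. With the replicate block the counts were 5 for P635L Ctr against WT Ctr, 0 for P635L Tnpo3 against P635L Ctr, 0 for WT Tnpo3 against WT Ctr, 2 for P635L Tnpo3 against WT Tnpo3 and 9 for both P635L groups against both WT groups.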
